A study of Mus musculus with 8 samples.

Results

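The Cyp2c genes encode cytochrome P450 enzymes of the 2C subfamily, and 10 of them were examined in mouse liver: Cyp2c29, Cyp2c37, Cyp2c38, Cyp2c39, Cyp2c40, Cyp2c50, Cyp2c54, Cyp2c55, Cyp2c69 and Cyp2c70. The members were taken by gene symbol, as every probe that the array annotation gives to a listed gene, out of 25697 probes in all. For 8 of the 10 genes there was a probe, 13 probes together. Cyp2c54 and Cyp2c69 had none in the annotation and were not analysed here. Of the 8 genes, 6 passed a filter on dim probes and were tested, and Cyp2c38 and Cyp2c40 were below it and are given by their signals and detection p-values.

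Livers of 4 WT and 4 TgC6hp55 male mice on the C57BL/6J background, all aged 21 weeks, were measured with 1 array per liver, on Illumina BeadChips for mouse mRNA (Mouse Ref-8 v2.0). TgC6hp55 mice carry the coding sequence of human TNFR1 behind the CollagenVI(a1) promoter, which is active in mesenchymal cells, followed by an hGH (human growth hormone) minigene; WT mice carry neither. The study names no treatment of the mice used for the arrays and kept its mice under specific pathogen-free conditions. Whether these mice had been through its metabolic tests is not stated. Founder 1 was the line used for most of the study, and the labels do not name the line, the litter or the cage of the livers measured, so the p-values cover the spread between these 8 livers only. The mean signal was 167 to 179 on the WT arrays and 112 to 224 on the TgC6hp55 arrays, lowest in replicate 4 and highest in replicate 3, and 10541 to 12011 probes per array were detected (detection p under 0.05). In bulk liver, fewer cells of a type and less RNA per cell cannot be told apart. The hepatocyte genes Trf (transferrin) and Apoa1 (apolipoprotein A1) had mean log2 signals of 13.91 and 13.66 in WT and 14.02 and 13.68 in TgC6hp55 livers, while the probe of Alb (albumin) had a low signal (5.37 and 5.74) and is no check of the tissue. Of 12 tested hepatocyte markers, 11 did not pass the test between the groups and 1, Tdo2 (tryptophan dioxygenase), was lower (log2 fold change -0.70, adjusted p = 0.0125, not passing after median scaling, in SAM or in the plain test), with a median log2 fold change of 0.030. The share over all features that passed as lower was 4.51%.

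Cytochromes P450 are haem enzymes of the endoplasmic reticulum that insert an oxygen atom into their substrate, with electrons supplied by P450 oxidoreductase. In the liver, enzymes of the 2C subfamily oxidise drugs and steroids, turn arachidonic acid into epoxides and hydroxylated acids that act as signals, and some act on retinoic acid or bile acids. Many of their genes respond to the nuclear receptors CAR (gene Nr1i3) and PXR (gene Nr1i2), and many liver P450 genes of rodents differ between the sexes under the control of the pattern of growth hormone secretion. In the RefSeq annotation of GRCm38.p6 15 coding Cyp2c genes lie on chromosome 19, and those of the main cluster follow each other in the order Cyp2c55, Cyp2c65, Cyp2c66, Cyp2c29, Cyp2c39, Cyp2c38, Cyp2c67, Cyp2c68, Cyp2c40, Cyp2c69, Cyp2c37, Cyp2c54, Cyp2c50 and Cyp2c70. The genes are close copies of each other, and a probe may also bind the mRNA of a neighbour; this was not tested.

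Cyp2c39, which hydroxylates retinoic acid in mouse liver, was higher in every TgC6hp55 liver than in any WT liver. The deposited intensities of its probe (ILMN_2677792) were 7, 7, 11 and 4 in WT replicates 1 to 4 and 64, 91, 105 and 35 in TgC6hp55 replicates 1 to 4. After the authors' cubic spline normalization they were 17, 18, 21 and 14 against 86, 102, 84 and 71. The probe was near the background in WT livers, where 2 of 4 arrays detected it (detection p 0.0739, 0.0489, 0.0163 and 0.153), and was detected on 4 of 4 TgC6hp55 arrays. The normalized log2 signals were 4.54, 4.57, 4.76 and 4.42 in WT and 6.49, 6.70, 6.44 and 6.22 in TgC6hp55 livers. The groups did not overlap on any of these scales. Signals of all genes were put on the log2 scale after a normexp background correction and an offset of 16, which understates the change of genes with low signals. On that scale the mean rose from 4.57 ± 0.14 to 6.46 ± 0.19 (SD, n = 4 each), a log2 fold change of 1.89 (SE 0.12, 95% confidence interval 1.63 to 2.16), with an adjusted p of 7.88e-07 in limma's moderated test over 8539 features. This is 3.71-fold on the scale with the offset, and its size depends on that offset, since 2 of the 4 WT values lay below detection. The 4 TgC6hp55 arrays alone were enough for the probe to pass the detection filter. Cyp2c39 was the 1 member of 6 tested that passed the threshold of 0.05 and the 1 whose groups did not overlap; over all features, 6.48% passed as higher, 4.51% passed as lower, and 16.8% did not overlap. With 6 genes, 1 call is not a share that stands apart from that background. No member was called lower: 0 of 6 in limma, 0 at an unadjusted p under 0.05, and 0 in SAM and in a plain unpaired test, while 2 of 6 were higher at an unadjusted p under 0.05, Cyp2c39 and Cyp2c29. Of all 8539 features, 2087 had an unadjusted p under 0.05 in limma, in either direction.

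**Figure D1:**
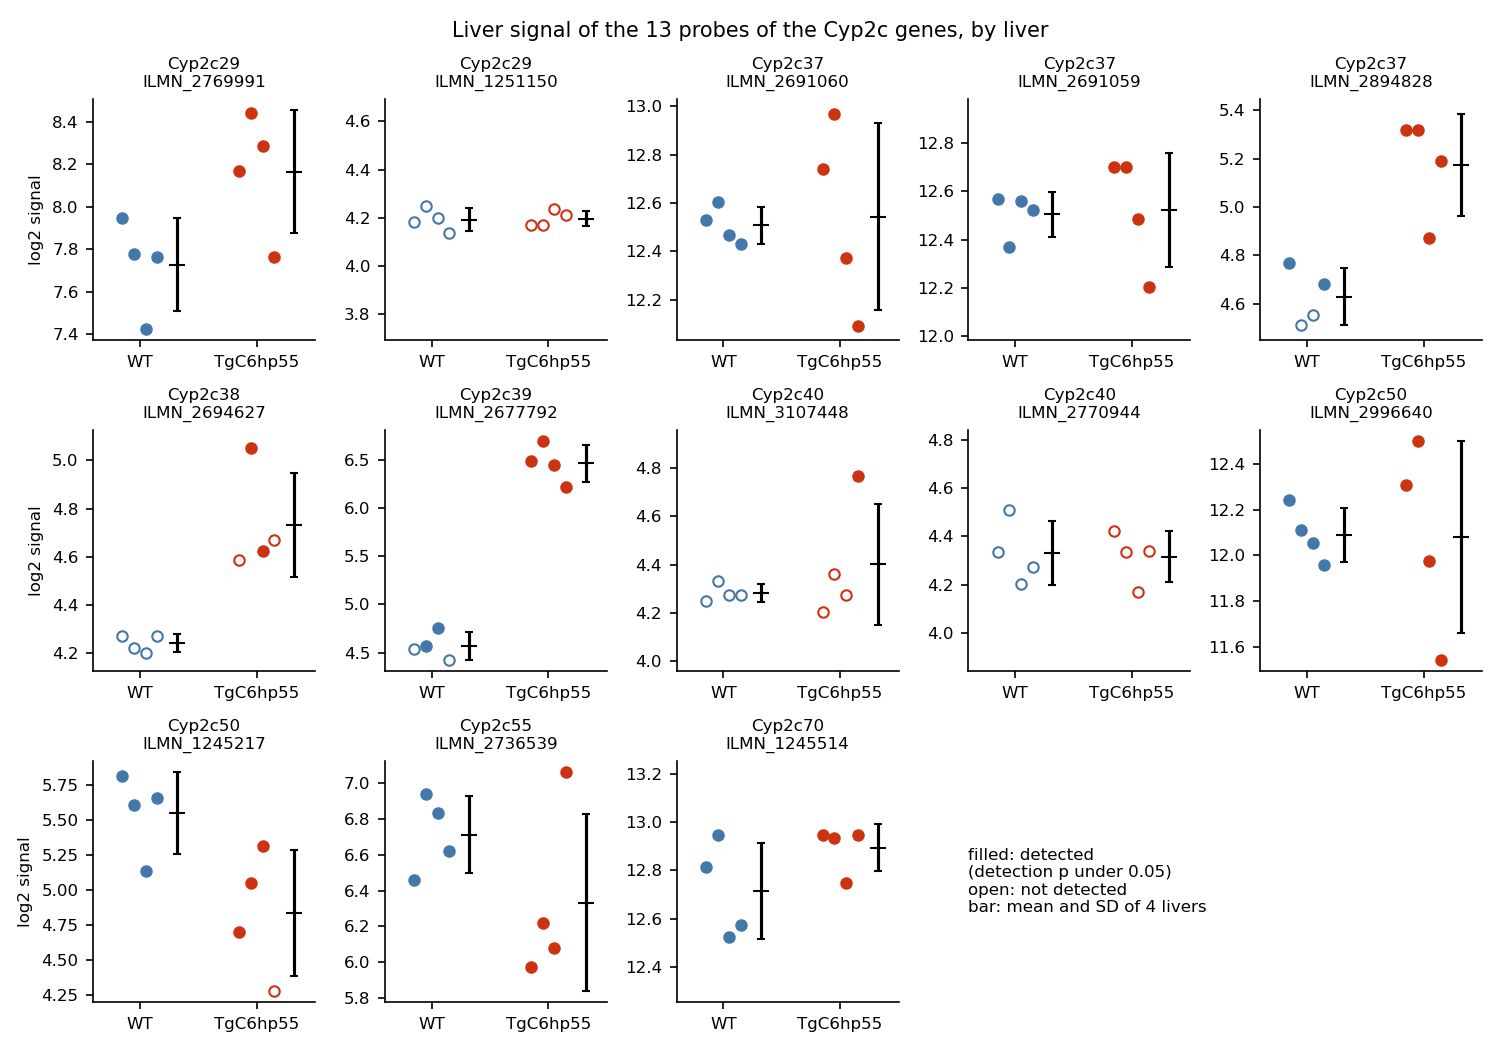
Normalized log2 signal of each of the 13 probes of the 8 Cyp2c genes on the array (vertical axes, which differ between panels), for the 4 WT livers in blue and the 4 TgC6hp55 livers in red, in replicate order within a group, with black bars for the mean and SD of a group. Open circles are arrays that did not detect the probe; for Cyp2c39 the TgC6hp55 livers lie between 6.22 and 6.70 and the WT livers between 4.42 and 4.76.

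Cyp2c38, the neighbour of Cyp2c39 and an arachidonic acid epoxygenase, was detected in TgC6hp55 livers alone. The intensities of its probe (ILMN_2694627) were 0, -2, -3 and 0 in WT livers (0 of 4 detected, detection p 0.457 to 0.762) and 7, 18, 12 and 7 in TgC6hp55 livers. It was detected in TgC6hp55 replicates 2 and 3 (detection p 0.00251 and 0.0263), and replicates 1 and 4 lay just above the limit of 0.05 (0.0514 and 0.0501). The log2 signals were 4.20 to 4.27 in WT and 4.59, 5.05, 4.62 and 4.67 in TgC6hp55 livers, without overlap. Because no WT array detected the probe, its fold has no exact size. The TgC6hp55 mean (4.73 ± 0.22, against 4.24 ± 0.04 in WT, SD, n = 4 each) lay 1.11-fold above the detection limit in WT. That limit was, for each WT array, the lowest signal that a detected probe had there, or the probe's own signal where that was higher. Replicates 1 and 4 of TgC6hp55, not detected themselves, entered the mean, so 1.11 is not a firm lower bound. The probe did not pass the detection filter, so Cyp2c38 was not tested with the other genes. In a fit without the filter its log2 difference was 0.49 (SE 0.10, adjusted p = 0.0310). All WT signals in that fit lay below detection, so its SE and p-value do not measure the spread of expression in WT livers. In the annotation Cyp2c38 lies within the span of Cyp2c39 on the opposite strand, and whether each probe binds the mRNA of 1 of the genes alone was not tested.

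The promoter windows of Cyp2c39, Cyp2c38 and Cyp2c29, the other tested member of this stretch of the cluster, are shown. Cyp2c39 and Cyp2c38 were chosen as neighbours whose signals in every TgC6hp55 liver lay above those in any WT liver. Their windows are also among the most alike of the members. Each window spans 250 bases before to 50 after a RefSeq start (GRCm38.p6), read 5′ to 3′ on the gene's own strand: Cyp2c39 start 1 at chr19:39347096-39347395, plus strand, start 2 at chr19:39510572-39510871, plus strand, Cyp2c38 at chr19:39463026-39463325, minus strand, and Cyp2c29 at chr19:39286835-39287134, plus strand. Capitals mark matches to TGTTTAC, the core that forkhead FOXA factors bind, to AGGTCA, the half-site of many nuclear receptors, and to TATAAA.
Cyp2c39 start 1: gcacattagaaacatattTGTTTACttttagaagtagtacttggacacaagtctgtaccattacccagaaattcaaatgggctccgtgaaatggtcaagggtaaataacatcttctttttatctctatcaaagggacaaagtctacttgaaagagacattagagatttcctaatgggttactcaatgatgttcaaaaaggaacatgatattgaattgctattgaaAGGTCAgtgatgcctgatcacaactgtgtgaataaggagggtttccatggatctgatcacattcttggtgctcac
Cyp2c39 start 2: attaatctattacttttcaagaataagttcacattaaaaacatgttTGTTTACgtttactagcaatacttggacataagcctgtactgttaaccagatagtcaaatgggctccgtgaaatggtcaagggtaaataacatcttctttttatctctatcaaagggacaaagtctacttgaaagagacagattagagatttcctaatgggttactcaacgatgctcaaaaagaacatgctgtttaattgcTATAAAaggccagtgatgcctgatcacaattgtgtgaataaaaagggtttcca
Cyp2c38: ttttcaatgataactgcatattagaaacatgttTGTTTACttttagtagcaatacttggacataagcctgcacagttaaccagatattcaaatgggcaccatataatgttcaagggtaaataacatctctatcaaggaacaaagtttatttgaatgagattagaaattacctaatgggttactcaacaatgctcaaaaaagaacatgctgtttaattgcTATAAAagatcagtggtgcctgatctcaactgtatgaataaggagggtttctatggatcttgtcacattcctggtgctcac
Cyp2c29: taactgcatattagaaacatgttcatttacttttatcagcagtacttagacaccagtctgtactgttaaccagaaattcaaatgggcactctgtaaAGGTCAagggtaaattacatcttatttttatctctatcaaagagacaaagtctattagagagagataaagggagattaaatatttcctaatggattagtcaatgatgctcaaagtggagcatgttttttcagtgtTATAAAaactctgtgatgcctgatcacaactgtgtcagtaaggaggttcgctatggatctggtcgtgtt
In a global alignment, start 1 of Cyp2c39 was identical to Cyp2c38 at 78.1% of columns, to Cyp2c29 at 75.7% and to start 2 at 74.2%, and Cyp2c29 and Cyp2c38 shared 70.8%. Which of the starts of Cyp2c39 was used in these livers cannot be told from a single probe.

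A window was held for 9 of the 10 members, 10 windows in all with both starts of Cyp2c39. TGTTTAC, searched on both strands, was in 3 of these 10 windows, the pair of Cyp2c39 and that of Cyp2c38, and in 3.65% of all 32851 promoter windows of the same length. These 3 windows are near copies of one another, so they are not independent. AGGTCA, on both strands, was in 3 of 10 member windows (Cyp2c29, Cyp2c39 start 1 and Cyp2c70) and in 16.3% of all. TATAAA, on the gene's strand, was in 6 of 10 and in 8.32% of all. The C/EBP motif TTGCNNAA, on both strands, was in Cyp2c37, Cyp2c40 and Cyp2c69, 3 of 10, and in 10.8% of all. The STAT5 motif TTCNNNGAA, which reads alike on both strands, was in 0 of 10 (8.3% of all). The direct repeats AGGTCANAGGTCA for HNF4A and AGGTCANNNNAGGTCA for CAR with RXR, both of which contain the half-site, were in 0 of 10 on either strand and in 0.0396% and 0.0152% of all. These counts describe letters in a window and not binding.

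Cyp2c29, an epoxygenase of arachidonic acid and one of the main Cyp2c enzymes of mouse liver, had a higher mean in TgC6hp55 livers but did not pass the test. The log2 signals of ILMN_2769991 were 7.95, 7.78, 7.42 and 7.77 in WT livers (intensities 235, 210, 164 and 198). In TgC6hp55 livers they were 8.17, 8.44, 8.29 and 7.76 (intensities 236, 343, 420 and 121). Replicates 1 to 3 of TgC6hp55 lay above every WT liver and replicate 4 lay within the WT range. The log2 fold change was 0.44 (SE 0.16, 95% confidence interval 0.096 to 0.78, adjusted p = 0.103; unadjusted p = 0.0165). Without TgC6hp55 replicate 4, the array with the lowest mean signal (112), it was 0.57 with an adjusted p of 0.0199, and with array weights 0.52 with an adjusted p of 0.0288; the part of the array's brightness in this was not tested. A second probe of Cyp2c29, ILMN_1251150, was not detected on any array (detection p 0.525 to 0.986) and bears no value on the comparison.

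Cyp2c37, which hydroxylates arachidonic acid, and Cyp2c50, an epoxygenase and hydroxylase, had high signals and no difference in the group means that passed the test. For Cyp2c37 the log2 signals of ILMN_2691060 were 12.53, 12.60, 12.47 and 12.43 in WT and 12.74, 12.97, 12.37 and 12.09 in TgC6hp55 livers. For Cyp2c50 those of ILMN_2996640 were 12.24, 12.11, 12.05 and 11.96 in WT and 12.31, 12.50, 11.98 and 11.54 in TgC6hp55 livers. In both genes TgC6hp55 replicate 2 was the highest and replicate 4 the lowest of the 8 livers, so that the WT values lay inside the TgC6hp55 range. The SD was 0.08 in WT and 0.39 in TgC6hp55 livers for Cyp2c37, and 0.12 and 0.42 for Cyp2c50; no test of the spread was made. The difference in means was 0.036 for Cyp2c37 (SE 0.17, 95% confidence interval -0.33 to 0.40, adjusted p = 0.924), and its sign turned after median scaling (-0.14). For Cyp2c50 it was -0.010 (SE 0.18, 95% confidence interval -0.40 to 0.38, adjusted p = 0.980), and its sign turned with the authors' normalized values (0.025). The intervals leave room for changes of up to about 0.40 on the log2 scale in either direction.

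Further probes of both genes were tested in a fit of all 11100 probes that passed the filter, of which 10.4% were called. ILMN_2691059, a second bright probe of Cyp2c37, gave log2 signals of 12.57, 12.37, 12.56 and 12.52 in WT and 12.70, 12.70, 12.49 and 12.21 in TgC6hp55 livers, with a difference of 0.020 (SE 0.13, adjusted p = 0.949). The third probe of Cyp2c37, ILMN_2894828, was near the background. Its intensities were 11, 6, 7 and 9 in WT (2 of 4 detected) and 21, 25, 20 and 13 in TgC6hp55 livers (4 of 4 detected), and its log2 signals did not overlap (4.51 to 4.77 against 4.87 to 5.32). It was higher by 0.55 (SE 0.12, adjusted p = 0.0131), unlike the 2 bright probes of Cyp2c37, whose differences were 0.036 and 0.020. The 4 TgC6hp55 arrays alone were enough for this dim probe to pass the detection filter. Its p-value is to be read with that choice in mind. The second probe of Cyp2c50, ILMN_1245217, had intensities of 40, 33, 20 and 33 in WT and 9, 18, 36 and 0 in TgC6hp55 livers, where replicate 4 did not detect it (detection p 0.520). Its log2 difference was -0.72 (SE 0.21, adjusted p = 0.0485), although the groups overlapped: TgC6hp55 replicate 3 (log2 signal 5.31) was above WT replicate 3 (5.14). The 2 probes of Cyp2c50 thus disagree too, and which transcript each probe reads was not analysed here.

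Cyp2c55 and Cyp2c40 are best known from the gut, where Cyp2c55 forms hydroxylated arachidonic acid. Cyp2c55 was detected on all 8 arrays. The log2 signals of ILMN_2736539 were 6.46, 6.94, 6.83 and 6.62 in WT livers. In TgC6hp55 livers they were 5.97, 6.22, 6.08 and 7.06. Replicates 1 to 3 of TgC6hp55 lay below every WT liver and replicate 4 above every WT liver. The log2 fold change was -0.38 (SE 0.21, 95% confidence interval -0.85 to 0.087, adjusted p = 0.307). Without TgC6hp55 replicate 4 it was -0.62 with an adjusted p of 0.0121. The deposited intensities, before normalization between arrays, were 72, 110, 101 and 79 against 41, 61, 76 and 71, and there replicate 4 (71) lay below replicate 3 (76) on the array with the lowest mean signal. Cyp2c40 was at the background: ILMN_2770944 was detected on none of the 8 arrays (intensities -6 to 6), and ILMN_3107448 on TgC6hp55 replicate 4 alone (intensity 8, detection p 0.0313), with -3 to 3 elsewhere. No fold is given for it.

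Cyp2c70, which in mice forms the muricholic acids from chenodeoxycholic acid, was detected on all 8 arrays with a high signal. The log2 signals of ILMN_1245514 were 12.81, 12.95, 12.52 and 12.57 in WT and 12.95, 12.93, 12.75 and 12.95 in TgC6hp55 livers, within overlapping ranges. The log2 fold change was 0.18 (SE 0.12, 95% confidence interval -0.074 to 0.43, adjusted p = 0.382), and after median scaling it was 0.042 (adjusted p = 0.980).

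Of the Cyp2c genes outside the list, 2 had a probe. Cyp2c65 was not detected on any array. Cyp2c67 was lower: the log2 signals of ILMN_3074610 were 12.15, 12.04, 11.89 and 11.86 in WT and 11.24, 11.47, 11.34 and 11.45 in TgC6hp55 livers, without overlap, a log2 fold change of -0.61 (SE 0.10, adjusted p = 0.00292; not passing in SAM, which asks for a fold over 1.7). Its second probe, ILMN_3153624, was lower as well (log2 difference -1.35, SE 0.14, adjusted p = 4.41e-05 over all probes). Along the cluster, then, Cyp2c39 was called higher and Cyp2c67, which lies beyond Cyp2c38, was called lower. The 95% confidence interval of Cyp2c39 (1.63 to 2.16) lay above those of the other 5 tested members, whose upper ends were 0.087 to 0.78. A test between genes was not made. Cyp2c39 was singled out for its large change, so this order follows from that choice. The size of its change also depends on the offset.

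**Figure D2:**
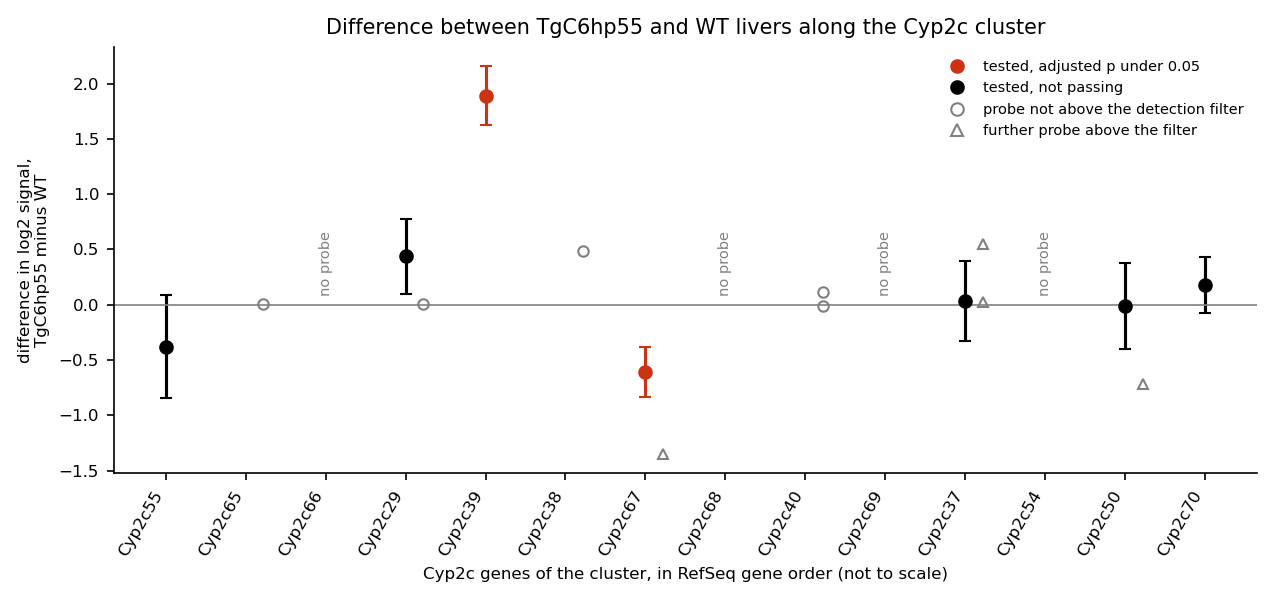
Difference in mean log2 signal between the 4 TgC6hp55 and 4 WT livers (vertical axis) for the Cyp2c genes of the cluster in RefSeq order (horizontal axis, not to scale), with 95% confidence intervals for the probe that represents a tested gene and no interval for other probes. Cyp2c39 lies at 1.89 and Cyp2c67 at -0.61, and the other tested genes have intervals that meet 0 or, for Cyp2c29, an adjusted p of 0.103.

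The genes whose centred log2 profile over the 8 livers was nearest to that of Cyp2c39, by root mean square difference, were Gas6 (0.183), a ligand of the TAM receptor tyrosine kinases, Ctsc (0.197), the protease cathepsin C, and Cyp2g1 (0.203), a P450 known from olfactory mucosa. Their log2 fold changes were 1.72 (SE 0.11, adjusted p = 6.01e-07), 1.57 (SE 0.12, adjusted p = 3.20e-06) and 2.05 (SE 0.12, adjusted p = 2.53e-07). All 3 were called in each of the 19 alternative settings. They were picked for likeness to a profile with a large group difference, so these calls follow from the choice and are no separate support. No member was called lower, so no such set was made for a decrease.

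**Figure D3:**
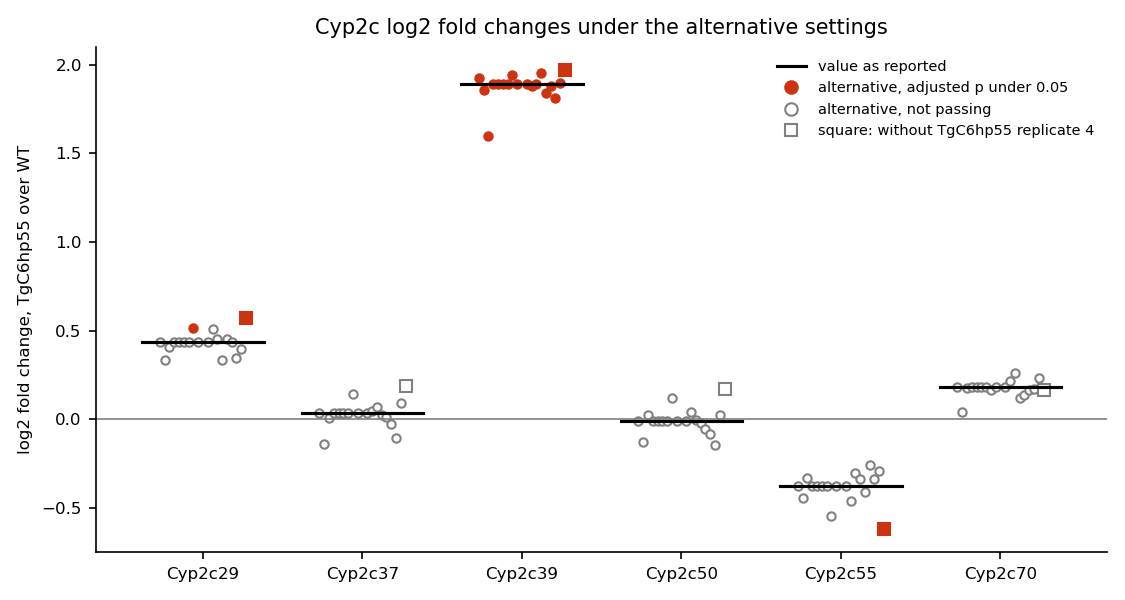
Log2 fold change of the 6 tested members (vertical axis) as reported (black line) and under the alternative settings other than SAM, with red symbols where the adjusted p was under 0.05 and squares for the fit without TgC6hp55 replicate 4. Cyp2c39 stays between 1.60 and 1.97, Cyp2c29 and Cyp2c55 pass in the fit without that liver (Cyp2c29 with array weights too), and Cyp2c37 and Cyp2c50 lie on both sides of 0.

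Among 19 tested regulators of Cyp2c genes (of 25 listed), 3 were higher and 1 lower, with a median log2 fold change of 0.091 beside -0.008 over all features. For this list and the next, the shares over all features were 6.48% called higher and 4.51% called lower. Cux2, a transcription factor of female mouse liver, was not detected in WT livers and was detected in all 4 TgC6hp55 livers, at least 8.95-fold higher (adjusted p = 2.87e-09). It passed the detection filter through the TgC6hp55 arrays alone, so its p-value is to be read with that choice in mind. Nr1i3 (CAR) was higher by 1.12 (SE 0.15, adjusted p = 5.08e-04), with no overlap between the groups. Esr1 was higher by 1.09 (SE 0.10, adjusted p = 2.23e-05), from a mean log2 signal of 5.16 in WT livers. Bcl6, a repressor that is higher in male mouse liver, had means of 8.91 ± 1.31 in WT and 6.98 ± 0.34 in TgC6hp55 livers (log2 fold change -1.93, adjusted p = 0.0289, groups overlapping). The call of Bcl6 was lost without filter, with a variance trend, in SAM, in a plain test, and without WT replicate 1, 2 or 4 or TgC6hp55 replicate 1, 3 or 4 (adjusted p 0.0562 to 0.0767 in these 6 fits). Nr1i2 (PXR; 0.097), Hnf4a (0.11) and Ghr (0.001), the growth hormone receptor, did not pass the test. Of 16 tested genes known to respond to CAR or PXR, 5 were higher (median 0.30). Cyp2b10, the P450 most used as a readout of CAR, rose by 3.56 (SE 0.22, adjusted p = 4.90e-07), and Slco1a4, an organic anion transporter, by 0.82 (adjusted p = 0.00713, not passing after median scaling or in the plain test). Gsta2, a glutathione transferase, was higher by 1.20 (adjusted p = 0.0197), a call lost without WT replicate 1 or 2 or TgC6hp55 replicate 3 (adjusted p 0.0580 to 0.0660), without filter, with a variance trend and in the plain test. Leaving out 1 liver moved the count in this group to between 2 and 5 genes, with 3 without WT replicate 2 or 4 or TgC6hp55 replicate 1 and 2 without TgC6hp55 replicate 3. Cyp3a11, the usual PXR readout, did not pass (-0.23).

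The partners and pathways of the enzymes were counted in the same way, beside 6.48% of all features called higher and 4.51% called lower. Of 6 listed partners of P450 enzymes in electron transfer or haem binding, 4 had a probe and were tested (Cyb5a, Cyb5b, Cyb5r3 and Pgrmc1). P450 oxidoreductase had none in the annotation and was not analysed here. None of the 4 was called (0 at an unadjusted p under 0.05, 0 in SAM and in the plain test; median -0.087), and Cyb5r3, the reductase of cytochrome b5, had the smallest p (-0.17, adjusted p = 0.475). Of 10 tested genes for release of arachidonic acid and for its other oxidation routes, 3 were lower (median -0.18): Cyp4f13 (-0.50, adjusted p = 0.00702), Cyp4f14 (-0.39, adjusted p = 0.0161), both omega-hydroxylases, and Ephx2 (-0.35, adjusted p = 0.0377), the soluble epoxide hydrolase that opens the epoxides made by Cyp2c enzymes. None of these 3 passed after median scaling or in SAM. The call of Cyp4f14 was lost without TgC6hp55 replicate 2 (adjusted p = 0.0510), where 1 of the 10 genes was called, and that of Ephx2 without any 1 liver other than TgC6hp55 replicate 3 (adjusted p 0.0546 to 0.102) and with the replicate number as a block (0.0540).

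Of 14 tested genes of retinoid metabolism, 3 were higher and 2 lower (median 0.19), beside 6.48% and 4.51% over all features. Rdh16, a retinol dehydrogenase, rose by 1.08 (SE 0.19, adjusted p = 0.00315, not passing after median scaling), and Adh4, an alcohol dehydrogenase that oxidises retinol, fell by 1.05 on the log2 scale (adjusted p = 1.12e-04). Rdh9, a dehydrogenase of the same group, was higher by 0.78 (adjusted p = 0.0383) with overlapping groups, a call lost without WT replicate 2, 3 or 4 or TgC6hp55 replicate 1, 2 or 3 (adjusted p 0.0613 to 0.116), without filter, after median scaling, in SAM and in the plain test. Cyp26a1, the main retinoic acid hydroxylase, did not pass (-0.57). The count of higher genes was 1 without WT replicate 4 or TgC6hp55 replicate 1 or 3. Of 9 tested genes of bile acid hydroxylation, the pathway of Cyp2c70, 1 was higher and 3 lower (median -0.22). Cyp7b1, the oxysterol 7-alpha-hydroxylase, fell by 3.52 on the log2 scale (SE 0.21, adjusted p = 4.90e-07), and Cyp27a1, a sterol hydroxylase, by 0.72 (adjusted p = 0.00371, not passing after median scaling or in SAM). Cyp7a1, the rate-limiting enzyme of bile acid synthesis, was higher by 1.89 (SE 0.45, adjusted p = 0.0200), a call lost without TgC6hp55 replicate 2 or 3 (adjusted p 0.0580 and 0.0595), without filter (0.0926), with a variance trend (0.107) and in the plain test (0.139).

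**Figure D4:**
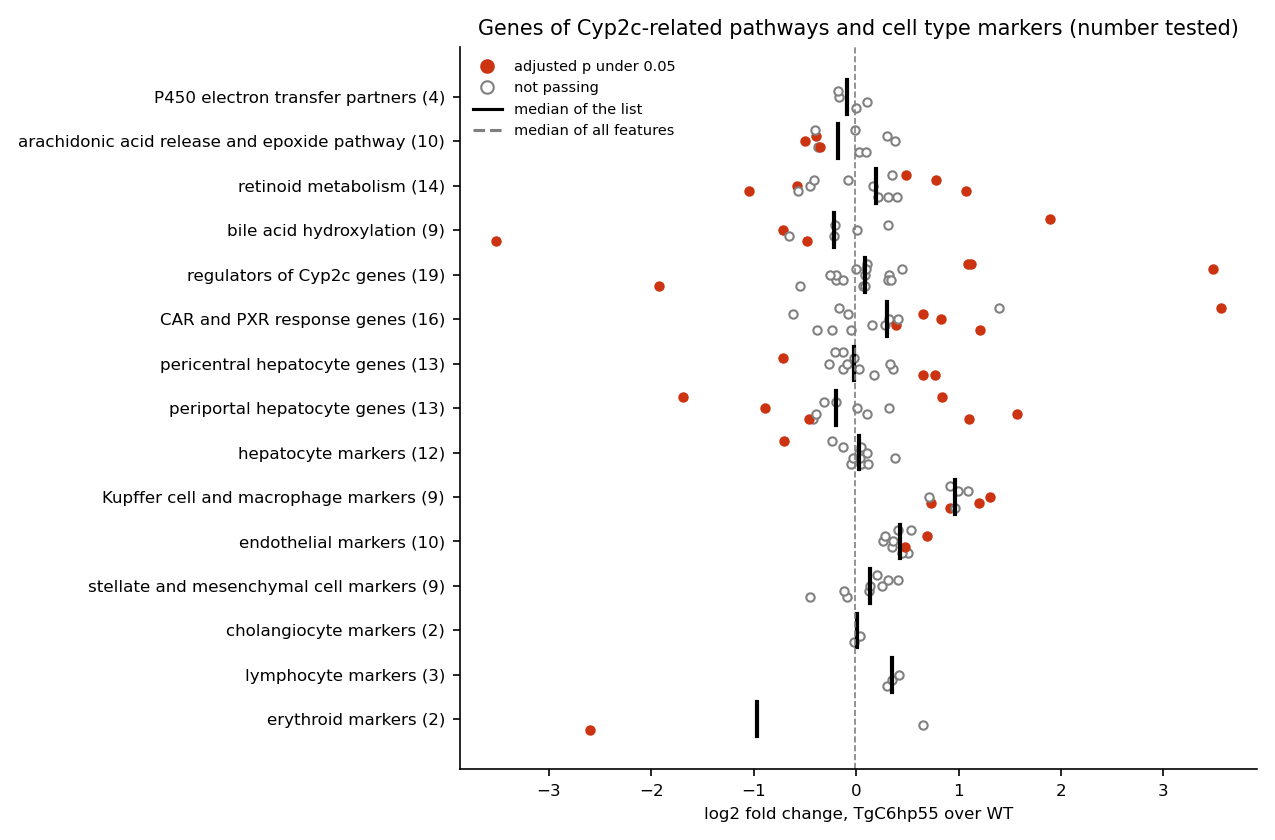
Log2 fold change (horizontal axis) of each tested gene of the pathway and marker groups (rows, with the number tested), red where the adjusted p was under 0.05, with the median of a group as a black bar and that of all features (-0.008) as a dashed line. The Kupffer cell markers have a median of 0.97 and the hepatocyte markers one of 0.030.

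Genes of liver zones and of other cell types were read beside the Cyp2c values. Of all 8539 features, 6.48% were called higher and 4.51% lower, and 2087 had an unadjusted p under 0.05 in either direction. Of 13 tested pericentral genes, the zone where most P450 enzymes are made, 2 were higher and 1 lower (median -0.019; Aldh3a2, a fatty aldehyde dehydrogenase, 0.77, Cyp27a1 as above, and Rhbg, an ammonium transporter, 0.65), and none of these 3 passed after median scaling, Aldh3a2 and Rhbg not in the plain test, and Cyp27a1 and Rhbg not in SAM. Of 13 periportal genes 3 were higher and 3 lower (median -0.20; Cdh1, E-cadherin, -1.69, Ctsc as above, and Aldh1b1, an aldehyde dehydrogenase, 1.10). Of 9 tested Kupffer cell and macrophage markers (12 listed), 4 were higher and all 9 were higher at an unadjusted p under 0.05 (median 0.97; the complement genes C1qb, 1.31, and C1qa, 1.20, and Adgre1, a macrophage surface receptor, 0.92). Their summed signal was 522 to 1891 in WT and 1663 to 2726 in TgC6hp55 livers. The count was 1 without WT replicate 2 or TgC6hp55 replicate 1 or 3, 2 without WT replicate 4 or TgC6hp55 replicate 2, 7 without WT replicate 3, 1 after median scaling and in SAM, and 0 without filter and in the plain test. Of 10 tested endothelial markers, 2 were higher and 9 at an unadjusted p under 0.05 (median 0.43; Fcgr2b, an Fc receptor of sinusoidal endothelium, 0.69, and Pecam1, an adhesion molecule, 0.48), with a summed signal of 2079 to 3096 in WT and 3207 to 3521 in TgC6hp55 livers; this count was 0 after median scaling and in SAM and 1 in the plain test. These lists moved with the group, as Cyp2c39 did, and their part in its value was not tested. No gene was called in the stellate (9 tested, median 0.14; Reln, an extracellular matrix protein, 0.41), cholangiocyte (2 tested, median 0.010; Krt7, a keratin, 0.037, of opposite sign without WT replicate 3 or TgC6hp55 replicate 3) and lymphocyte lists (3 tested, median 0.35; Cd3g, a T cell receptor subunit, 0.35); at an unadjusted p under 0.05 these held 1, 0 and 1 genes, and SAM and the plain test called 0. Reln passed without WT replicate 4 (0.55, adjusted p = 0.0270) and Cd3g without TgC6hp55 replicate 4 (0.42, adjusted p = 0.0344) and with array weights (0.39, adjusted p = 0.0361). Cd3g was near the background, detected on 1 of 4 WT and 4 of 4 TgC6hp55 arrays. The TgC6hp55 arrays alone were enough for it to pass the detection filter. The 2 tested erythroid markers went opposite ways: Alas2, the erythroid haem synthesis enzyme, fell by 2.59 on the log2 scale (adjusted p = 3.05e-05), and Hba-a1, an alpha globin, did not pass (0.65, adjusted p = 0.326).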

How the data were processed

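Total RNA of 8 livers was hybridised to Illumina Mouse Ref-8 v2.0 BeadChips. Per the labels, the authors used GenomeStudio 2011.1. Their first deposited table holds intensities without normalization between arrays and a detection p-value per probe and array; intensities down to -16 show that background had been subtracted. Their second deposited table holds intensities after cubic spline normalization. No genome build is given in the sources used here. The descriptions of the TgC6hp55 samples repeat 1 replicate number, so columns were matched by the number in the sample titles.

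In R 4.3.3 with limma 3.58.1, intensities were corrected by normexp from the detection p-values, given an offset of 16, quantile normalized and log2 transformed. Probes with a detection p under 0.05 on at least 4 of 8 arrays were kept (11100 of 25697). The probe with the highest mean represented a gene, which gave 8539 features (7881 genes and 658 unnamed probes), compared with lmFit and eBayes (TgC6hp55 minus WT, two-sided) and Benjamini-Hochberg adjustment. The number of arrays limits the precision. SAM at the thresholds of the methods (fold over 1.7, FDR under 1%) was an alternative, computed here with all 70 permutations. Of all probes, 23978 had 1 gene symbol and 1719 none, and 15 symbols were updated through RefSeq. Promoters came from RefSeq (GRCm38.p6) and were aligned with Biopython 1.88.

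The members and gene lists were chosen with earlier results of these data known. Named genes were every member and up to 3 called genes of each list by size of change (or the 1 with the smallest p). The 3 genes with profiles nearest to the member that changed most were named too. Genes outside this rule (Cyp2c65, Cyp26a1, Cyp3a11, Esr1, Nr1i2, Hnf4a, Ghr, Trf, Apoa1, Alb, Cyb5a, Cyb5b, Pgrmc1, Hba-a1) were named after their values were seen. The test was tried on simulated data. Each liver was also left out in turn, and other runs used median scaling, the cubic spline values, no normexp step, a detection p under 0.01 or no filter, all probes, array weights, a robust variance trend, a plain unpaired test of each gene, or a replicate block.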

Additional observations from a re-analysis of the deposited data

Results flagged for a closer look

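Values that stood apart from the rest of their group by Dixon's criterion were found in 2 of the 98 groups of 4 livers examined for the named genes; chance flags about 1 in 20 groups. For Cyp2c70 (ILMN_1245514), TgC6hp55 replicate 3 had a log2 signal of 12.75, below the other TgC6hp55 livers (12.93 to 12.95). Replicates 1 and 4 shared the same value after quantile normalization. With the authors' cubic spline values, replicate 3 (7009) lay nearer to the others (7482 to 7878). Its deposited intensity before normalization between arrays (8662) was the highest of the TgC6hp55 livers. For Pecam1 (ILMN_2700982), WT replicate 1 had a log2 signal of 5.16, below the other WT livers (5.46 to 5.50).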

How the results depend on the processing

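Cyp2c39 was called higher in all 19 alternative settings, with log2 fold changes of 1.60 to 1.97 and, where the setting gives one, adjusted p-values of 1.35e-07 to 7.70e-04. The count of members called higher was 1 except for 2 without the detection filter, where Cyp2c38 entered, 2 with array weights and 2 without TgC6hp55 replicate 4 (leaving out 1 liver: 1 to 2). The count called lower was 0 except for 1 without TgC6hp55 replicate 4, Cyp2c55 (leaving out 1 liver: 0 to 1). The sign of Cyp2c37 turned after median scaling (-0.14) and without TgC6hp55 replicate 1 (-0.030) or 2 (leaving out 1 liver: -0.11 to 0.19). That of Cyp2c50 turned with the authors' cubic spline values and so in SAM (0.025 in both), with array weights (0.12) and without WT replicate 1 (0.040) or TgC6hp55 replicate 3 (0.025) or 4 (leaving out 1 liver: -0.15 to 0.17). That of Krt7 turned without WT replicate 3 (-0.058) or TgC6hp55 replicate 3 (-0.013; leaving out 1 liver: -0.058 to 0.10). None of these values passed a threshold, and the cause was not tested.

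Over all features, 938 were called, against 293 after median scaling (152 higher and 141 lower), 360 in SAM (228 and 132), 590 in the plain test and 609 to 917 without 1 liver, lowest without WT replicate 2. With the replicate number as a block 912 features were called, and the block changed no call of a member (Cyp2c39 adjusted p = 2.89e-05); among the named genes it ended that of Ephx2. The labels do not say that a number marks a shared litter, batch or day. Deviations of livers with the same number correlated at 0.16, 0.12, 0.011 and 0.11, and 6 of 8 livers correlated best with their own number. No chance level was computed for these values, and whether the numbers mark a shared factor was not tested. Replicate 3 gave 0.011, under the limit of 0.1 set for every pair, and the numbers were not used as a pairing. Signals of Cyp2c38, Cyp2c39, Cyp2c40 and the third probe of Cyp2c37 in WT livers were at or near the background, which limits the size of their folds.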
